A study of Cricetulus griseus with 8 samples.

Results

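A small set of transcripts was almost or largely missing from the RNA of Chinese hamster ovary (CHO) cells that expressed RNG140-GFP, while it was present in control CHO cells. The members were chosen by their RNA counts alone, as CPM (each count times 1000000 over the library's total count). A member had at least 2 CPM in both control RNA libraries, and its lower control value was more than 4 times its higher RNG140-GFP value. Its listed length had to lie between 61 and 2499, and the 37 lowest-numbered identifiers were left out. The rule found 36 of the 34490 listed transcripts, of which 26985 had a length. Transcripts with identical counts in all 8 libraries were counted once, which left 34 members. The same length and control limits were met by 14285 transcripts counted this way, called eligible below, so that 0.238% of them were members. Because RNA values made the choice, the RNA levels are given as a description and carry no test.

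RNG140, the product of the Caprin2 gene, binds RNA and is found in RNA granules, cytoplasmic assemblies in which mRNAs can be held apart from translation. CHO cells are an established hamster cell line that is widely used to express proteins. Ribosome profiling sequences the RNA fragments that ribosomes shield from nuclease, called footprints. Footprints thus count the ribosomes on an mRNA, and set beside its RNA they show how densely its copies were occupied.

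The study compared CHO cells of wild-type background, the controls, with CHO cells expressing the RNG140-GFP fusion protein. Each population gave 2 footprint libraries and 2 RNA libraries. The labels give neither the expression vector, nor whether the RNG140-GFP cells were 1 clone, nor whether the controls carried GFP or a vector. Nothing in them says that libraries came from separate cultures, so the tests measure the spread between these libraries, which may be technical. RNA libraries held 22849263 to 35875108 counts and footprint libraries 4908885 to 16928311. At this depth a count of 0 allows up to 0.109 and 0.131 CPM in the RNG140-GFP RNA libraries and up to 0.246 and 0.177 CPM in their footprint libraries, for counting error only. No column of the tables names a gene, and a RefSeq gene table of assembly CriGri-PICRH-1.0 matched 0 of the identifiers. Members are therefore called by their listed length, whose unit is not given, and gene names, sequences and genomic positions of the identifiers were not analysed here.

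In RNA the members fell into 2 kinds, separated by a gap in the counts that remained. In 21 members, called nearly absent here, both RNG140-GFP RNA libraries together held 0 to 3 counts, and 12 of the 21 held none at all. The other 13, called reduced, still held 10 to 224 counts. This division was made after the values were seen. Across all 34 members, control RNA ranged from 2.29 to 48.9 CPM and RNG140-GFP RNA from 0 to 4.53 CPM. The control replicates of any member differed by no more than 1.22-fold. In bulk RNA, a transcript missing from every cell and one missing from most cells of a mixed population cannot be told apart.

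**Figure D1:**
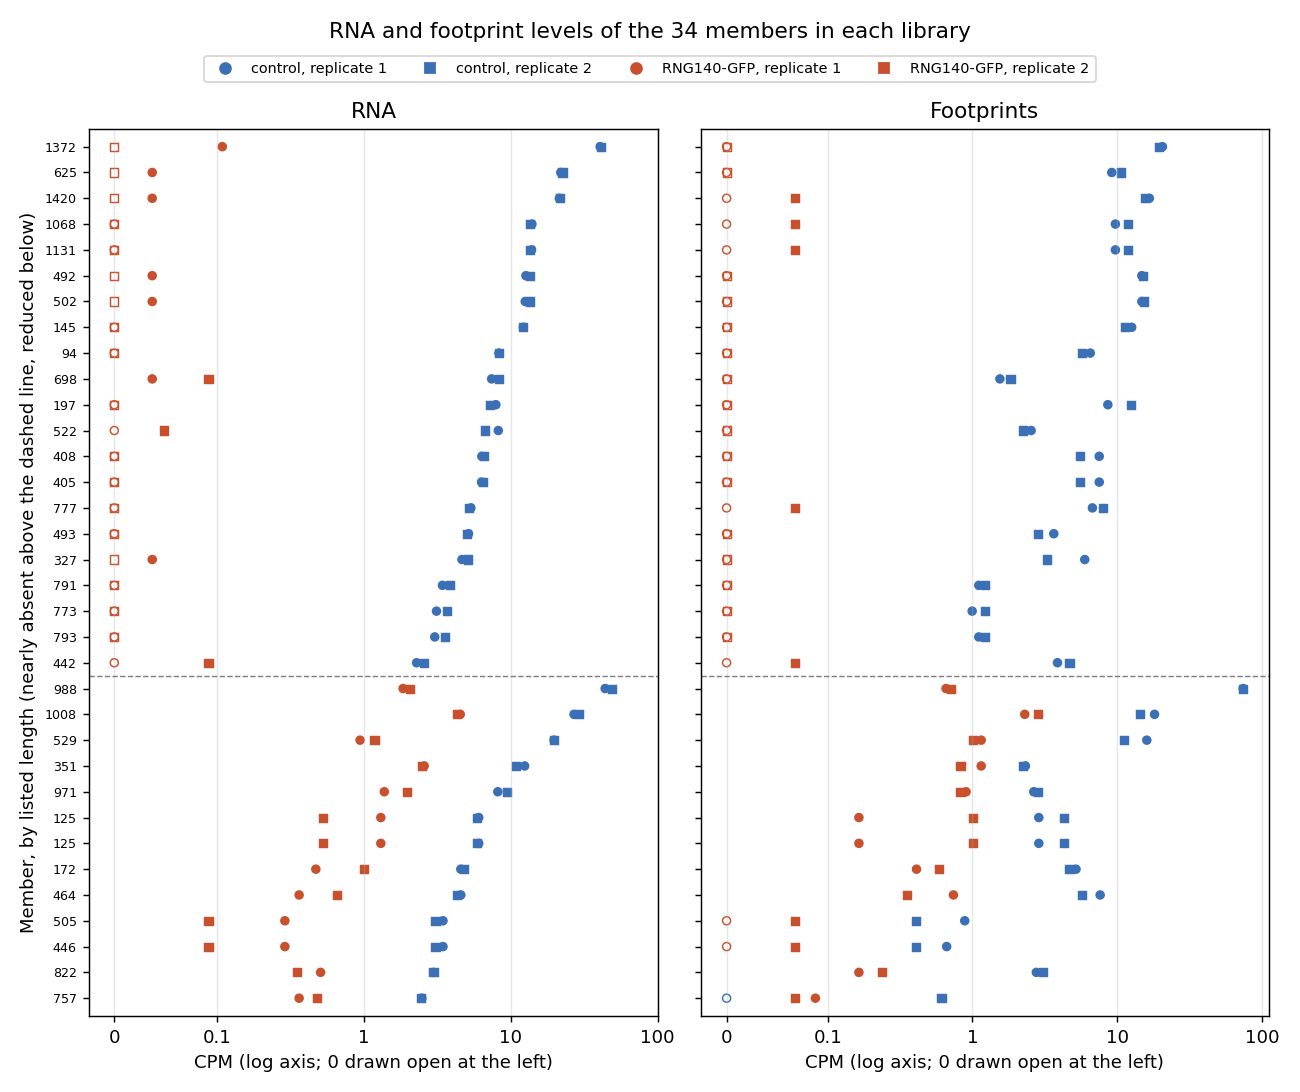
RNA (left) and footprint (right) CPM of each of the 34 members on log axes, with zeros drawn as open symbols at the left edge; circles and squares are replicates 1 and 2 of control (blue) and RNG140-GFP (orange) cells. Above the dashed line are the 21 nearly absent members, whose RNG140-GFP RNA holds 0 to 3 counts, and below it the 13 reduced members; in footprints the 2 cell populations overlap for 1 member, of listed length 757.

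Folds below are control over RNG140-GFP, from the counts and library totals of both replicates together, with exact 95% intervals that cover counting error only. Where no count remained, the fold was taken against 3 counts over the group and is a lower bound. Among the nearly absent members, the one with the most control footprints was ENSCGRT00000006748, of listed length 1372. Its RNA stood at 40.6 and 41.3 CPM in controls and at 0.109 and 0 CPM in RNG140-GFP cells, the former value resting on 3 counts. That is a ratio of 688, with an interval from 235 to 3339. Its footprints went from 20.6 and 19.6 CPM to 0 in both RNG140-GFP libraries, at least 196-fold lower. A transcript with the next identifier, of listed length 625, followed the same course, with 21.9 and 22.5 CPM of control RNA, 1 RNA count in RNG140-GFP cells, and 9.18 and 10.6 CPM of control footprints against 0 and 0.

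The longest member, of listed length 1420, also left next to nothing. Its control RNA was 21.4 and 21.8 CPM, and 1 count in the first RNG140-GFP library was all that remained, a ratio of 1089 (interval 195 to 43051). Its footprints were 16.7 and 15.5 CPM in controls, against a single count in the second RNG140-GFP library. Every control value of this member was thus far above every RNG140-GFP value in both assays.

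A pair of listed lengths 1068 and 1131 had control RNA of 13.9 and 13.6 CPM and of 13.9 and 13.5 CPM, and no RNA count in RNG140-GFP cells. Both were at least 230-fold lower. Their footprints, which were the same 88 and 58 counts in controls, were 9.74 and 11.8 CPM there and came down to 1 count. A second pair, of listed lengths 502 and 492, had 12.5 and 13.5 CPM and 12.7 and 13.5 CPM of control RNA against 1 count each. Their control footprints, at 14.8 and 15.3 CPM and at 14.8 and 15.1 CPM, were matched by 0 in both RNG140-GFP libraries. In both pairs RNA and footprints were nearly gone together. Counts within a pair were nearly equal, and whether its transcripts share reads was not tested.

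The shortest nearly absent members had no count in any RNG140-GFP library. The member of listed length 145 had 12.2 CPM in each control RNA library and 12.6 and 11.4 CPM in control footprints. Its RNA was at least 205-fold and its footprints at least 118-fold lower. Its neighbour of listed length 94, the shortest member, likewise went from 8.31 and 8.26 CPM of RNA and 6.53 and 5.7 CPM of footprints to 0 throughout. The only run of 3 transcripts, of listed lengths 791, 793 and 773, lay at 3.04 to 3.87 CPM in control RNA and at 0.996 to 1.22 CPM in control footprints. It was listed at 0 in all 4 RNG140-GFP libraries, and its lower bounds, 55.4-fold for the weakest in RNA and 10.4-fold in footprints, are limited by how few counts the controls held.

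Over the 21 nearly absent members, the 12 without RNA counts in RNG140-GFP cells had lower bounds from 55.4-fold to 232-fold, with a median of 108-fold. The 9 with 1 to 3 counts had ratios from 60.9 to 1119. Footprints were absent from both RNG140-GFP libraries for 16 of the 21 and held 1 count for the other 5, although control footprint counts ran from 15 to 282. The footprint assay, which played no part in the choice, thus found at most 1 count for any of them.

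The reduced members lost most, but not all, of their RNA. The member with the most control footprints of all was ENSCGRT00000019022, of listed length 988. Its RNA went from 43.9 and 48.9 CPM to 1.85 and 2.06 CPM, a ratio of 23.8 (interval 19.5 to 29.4). Its footprints went from 74.3 and 73.7 CPM to 0.657 and 0.709 CPM. In the fit with no filter on low counts, the footprint log2 change was -6.9 ± 0.33 (SE, here counting error only). The edgeR quasi-likelihood test called these footprints lower. Its footprints were 108-fold lower (interval 69.5 to 177), more than its RNA.

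The member of listed length 529, whose RNA interval overlapped that of 988, went from 19.7 and 19.8 CPM to 0.942 and 1.18 CPM in RNA, a ratio of 18.8 (interval 14.3 to 25.2). Its footprints went from 16 and 11.2 CPM to 1.15 and 1 CPM. In the fit with a minimum count of 10, the log2 change was -3.89 ± 0.28 (SE, here counting error only), with an adjusted p of 2.9e-10 in edgeR. The member of listed length 1008 kept more than any other in CPM. Its RNA was 27 and 28.9 CPM in controls against 4.53 and 4.33 CPM, a ratio of 6.28 (interval 5.46 to 7.24). Its footprints, at 18.1 and 14.5 CPM against 2.3 and 2.84 CPM, fell by about the same factor. The fit with a minimum count of 10 gave a log2 change of -2.84 ± 0.2 (SE; edgeR, adjusted p = 7.1e-10). A pair of listed length 125, with almost equal counts, was uneven between RNG140-GFP replicates. The first of the pair had 6.05 and 5.86 CPM of control RNA against 1.3 and 0.525 CPM, while its footprints went from 2.88 and 4.28 CPM to 0.164 and 1 CPM.

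Over the 13 reduced members, RNA ratios ran from 4.6 to 23.8 with a median of 6.56, and footprint ratios from 2.38 to 108 with a median of 9.74. For listed lengths 505, 446 and 757 the footprint ratio rests on 1 or 2 RNG140-GFP footprint counts. The pair of listed lengths 505 and 446 and that of listed length 125 enter both medians as separate members. No direction is read from these medians. The smallest footprint ratio was that of the member of listed length 351, whose control footprints were 2.32 and 2.24 CPM and whose RNG140-GFP footprints were 1.15 and 0.827 CPM. Its RNA stood at 12.4 and 10.8 CPM against 2.57 and 2.49 CPM. The member of listed length 757 carried hardly any ribosomes in either population, with 0 and 3 footprint counts in controls and 1 in each RNG140-GFP library.

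Footprints were then tested in the 4 footprint libraries alone, so that the RNA values behind the choice stayed out of the fit. Without any test, both RNG140-GFP footprint values lay below both control values for 33 of the 34 members, against 27.6% of eligible transcripts. The exception was the member of listed length 757. With no filter on low counts, all 34 could be tested, and 33 were called lower (edgeR quasi-likelihood test, adjusted p under 0.05), against 21.8% of the 19264 transcripts tested. Listed length 757 was again the exception, with an adjusted p of 0.48 in edgeR. Under the planned filter (10 counts), 31 members were tested and 31 were called lower, against 26.2% of 15886. Of these 31, however, 29 did not reach the filter in both RNG140-GFP libraries and were kept for their control counts, so that this last count was bound to be high. P-values could differ greatly between these 2 edgeR fits. For listed length 1372 the unadjusted edgeR p was 8.7e-131 without the filter and 1.2e-15 with it. For listed length 773 it was 4.1e-06 and 3.6e-06. Each fit had only 2 libraries per group, so very small unfiltered p-values should not be read as stronger evidence. Why they differ was not tested. The member of listed length 351 was called without a filter, with a log2 change of -1.4 ± 0.42 (SE; edgeR, adjusted p = 0.003), and with it (adjusted p = 0.0033 in edgeR). Its call was lost in DESeq2 (adjusted p = 0.079). In edgeR without the first control footprint library, its log2 change was -1.36.

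The limit that defined the set in RNA was also applied to footprints. Of the 27 members with at least 2 footprint CPM in both controls, 23 had a lower control value more than 4 times the higher RNG140-GFP value. Among all 13096 eligible transcripts with such control footprints, 27 did, or 0.206%. The set chosen on RNA thus held 23 of the 27 transcripts that met the same limit in footprints.

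**Figure D2:**
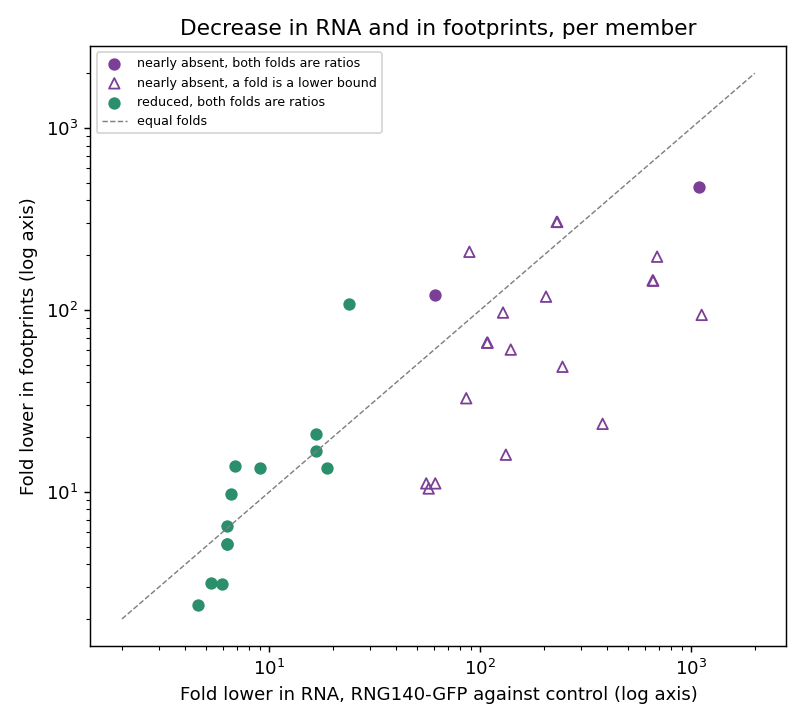
Fold decrease in footprints against fold decrease in RNA for each member, both on log axes; filled circles are ratios in both assays, open triangles have a lower bound in at least 1 assay, and the dashed line marks equal folds. The reduced members (green) scatter on both sides of the line from 2.38-fold to 108-fold in footprints, and the nearly absent members (purple) lie at 55.4-fold or more in RNA.

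The occupancy of the RNA that remained could be read only for reduced members with footprints left. It was taken as footprint CPM over RNA CPM in libraries of the same replicate number. These ratios contain the RNA values that chose the members and were not tested. A choice of low RNG140-GFP RNA by itself raises the RNG140-GFP ratio. Of the 13 reduced members, 10 had at least 5 RNG140-GFP footprint counts. Both RNG140-GFP ratios lay above both control ratios for 3 of the 10, below them for 3, and overlapped for 4. Both members of the pair of listed length 125, with nearly equal counts, are among these 4. The share of eligible transcripts with each order was not computed, so these counts have no background to be read against. The largest difference was that of listed length 988, with control ratios of 1.69 and 1.51 against 0.356 and 0.345. Listed length 822 lay the same way, at 0.927 and 1.03 against 0.324 and 0.675, on 6 RNG140-GFP footprint counts. In the other direction, listed length 351 had control ratios of 0.187 and 0.207 against 0.447 and 0.332, and listed length 971 had 0.325 and 0.304 against 0.656 and 0.42. Both orders thus occurred among the 10. Because the choice on RNA enters these ratios, no direction for the reduced members is concluded from them.

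**Figure D3:**
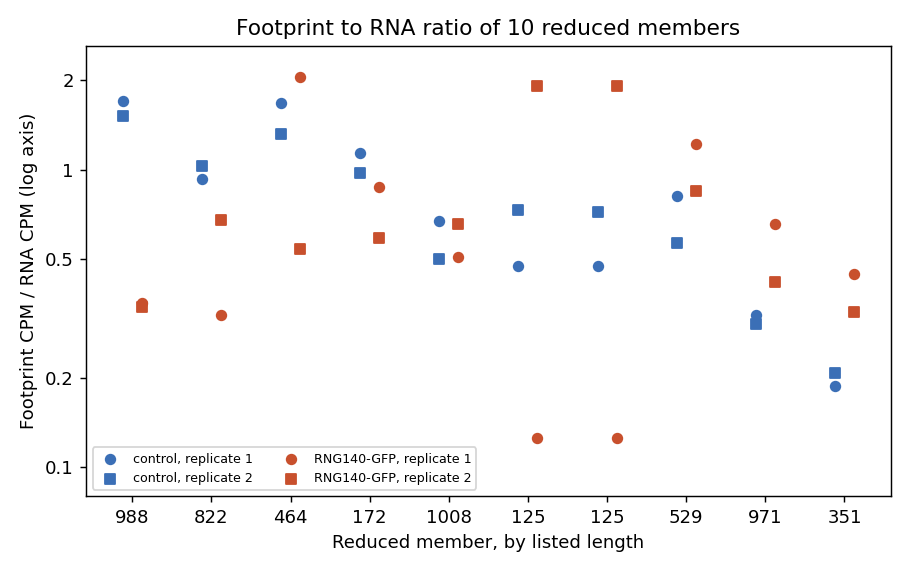
Footprint CPM over RNA CPM (log axis) for the 10 reduced members with at least 5 RNG140-GFP footprint counts, by listed length; blue is control, orange RNG140-GFP, circles and squares replicates 1 and 2. RNG140-GFP ratios lie below both control ratios for 3 members, above them for 3 and overlap for 4, with the widest separation at listed length 988.

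Sharing of a gene is not known here, so possible isoforms were grouped only indirectly, through identifiers that follow each other. The 36 transcripts formed 25 such runs: 15 single transcripts, 9 pairs and 1 run of 3. Transcripts of a run also stood in adjacent rows of the tables. Their counts were close to each other in most runs. How reads that fit several transcripts were counted is not stated. The pair of listed lengths 464 and 464 and that of 971 and 971 held identical counts. In 2 runs the totals differed clearly: listed lengths 1372 and 625 held 2746 and 1489 control RNA counts, and listed lengths 145 and 94 held 817 and 556. Members of a run may therefore not be independent, and 25 runs is the safer count, of which 14 were nearly absent and 11 reduced. With the first transcript of each run, 24 of 25 were called lower in footprints without a filter (edgeR, same threshold). Over all 19264 transcripts tested in that fit, 21.8% were called lower. No run mixed the nearly absent and the reduced kind.

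Of the 50 identifiers that flank the 25 runs, 49 stood at least 84 rows away in the tables. The remaining one, of listed length 858, followed the pair of listed length 971 and lay just outside the rule. It had 246 RNA counts in each control library against 35 and 41, and its lower control CPM was 3.82 times its higher RNG140-GFP CPM. The other flanking transcripts that were eligible, 29 in all, had RNA log2 changes from -1 to 1.44 with a median of 0.12. Thus a single flanking identifier stood next to its run, with an RNA decrease just short of the limit. Whether it is a further isoform is not known.

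The listed length of the members was not extreme. Its median was 513.5, with quartiles of 405.8 and 792.5, against 429 with quartiles of 244 and 711 for eligible transcripts. The eligible transcripts were divided by length into 5 equal bins, which held 6, 2, 9, 9 and 8 of the 34 members from the shortest to the longest. The bin with 2 covers lengths above 209 and up to 352. Nearly absent and reduced members had similar medians, at 522 and 505. In control cells the members had footprint to RNA ratios close to those of other transcripts. Their median ratio, footprint over RNA CPM, stood at 0.705 and 0.701 in control replicates 1 and 2, against 0.718 and 0.728 for eligible transcripts. In RNA level they stood lower. Per 100 units of listed length, their median control RNA was 1.53 and 1.55 CPM, against 6.15 and 6.14 CPM. These comparisons are descriptions, and no test was made over transcripts.

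**Figure D4:**
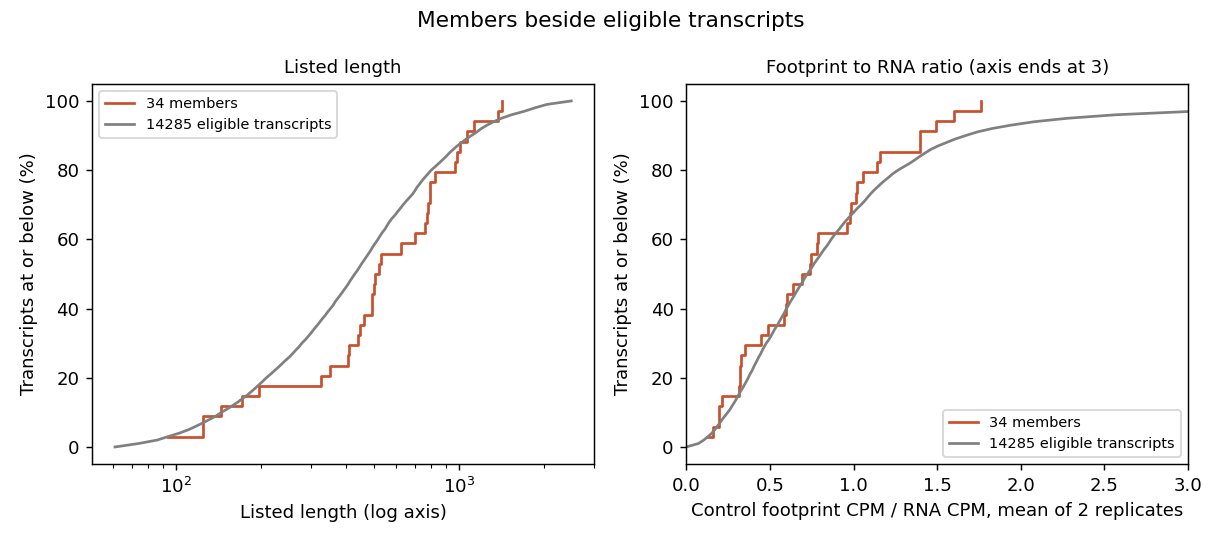
Cumulative share of transcripts by listed length (left, log axis) and by control ratio of footprint to RNA CPM (right, mean of 2 replicates, axis ending at 3) for the 34 members (orange) and the 14285 eligible transcripts (grey). Member lengths have a median of 513.5 against 429, and the 2 ratio curves run close together.

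Position could be described only through the order of rows, which is the same in all tables and whose meaning is not given in the sources used here. RNA changes of transcripts in nearby rows were related. Across 14099 eligible transcripts, the RNA log2 change of a transcript and the median of non-members 4 to 20 rows away correlated at Pearson r = 0.24. All points come from the same 4 RNA libraries. The median of such windows was 0.08 over all eligible transcripts, with quartiles of -0.07 and 0.24 and a 5th percentile of -0.37.

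Over the 14 nearly absent runs the window medians ranged from -0.62 to 0.26 with a median of -0.2, and over the 11 reduced runs from -0.15 to 0.37 with a median of 0.11. For 8 of the 14 nearly absent runs the window median lay below the lower quartile of all windows, and for 5 it lay below the 5th percentile. For the 11 reduced runs these numbers were 2 and 0. The 5 lowest medians were -0.62 beside the run of listed lengths 791, 793 and 773, -0.54 beside listed length 405, -0.48 beside 502, -0.46 beside 197 and -0.46 beside 1420. Beside listed length 1420, 15 of 16 neighbours had a negative RNA change, and beside listed length 405, 12 of 12. The runs of listed lengths 197 and 405 stood 8 rows apart and share neighbours, so they are not separate observations. The nearly absent runs of listed lengths 493 and 698 stood 29 rows apart, and their windows overlap too. Neighbours within a window may also be isoforms of each other, so their number need not be a number of separate observations. The neighbours' footprints had a median over runs of -0.2 near nearly absent runs and of 0.27 near reduced runs, against 0.16 over all windows. With a window of 50 rows, chosen after seeing the data, 6 of 14 and 0 of 11 lay below the lower quartile. With 10 rows, 5 of the 8 and 1 of the 4 runs with at least 5 neighbours did. The division into these kinds was made after the values were seen, and no row window was fixed in the plan. The difference between nearly absent and reduced runs was not tested, nor was the reason for it.

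**Figure D5:**
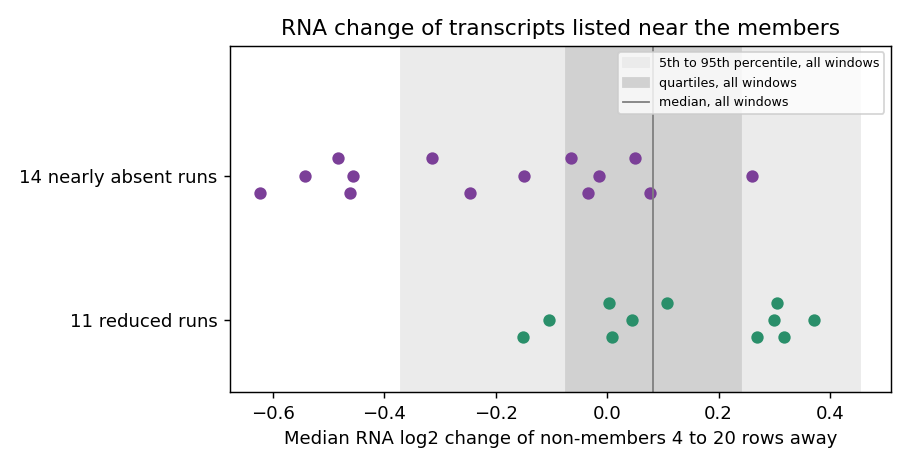
Median RNA log2 change (RNG140-GFP over control) of eligible non-members 4 to 20 rows from each run, 1 point per run, with vertical scatter only to separate points; shading gives the quartiles and the 5th to 95th percentile of the same median over all eligible transcripts. Of the nearly absent runs (purple), 5 of 14 lie below the 5th percentile of -0.37, and of the reduced runs (green) 0 of 11.

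At the edge of the rule, the members just inside it had lower control values of 4.15, 4.21 and 4.49 times the higher RNG140-GFP value, at listed lengths 971, 351 and 125. The member of listed length 971 had 8.17 and 9.38 CPM in control RNA against 1.38 and 1.97 CPM, and its footprints were 2.66 and 2.85 CPM against 0.904 and 0.827 CPM. The transcripts just outside had 3.96, 3.89 and 3.89 times, at listed lengths 562, 683 and 282. Of these, listed length 562 was abundant, with 46 and 44.8 CPM in control RNA against 11.3 and 10.6 CPM, and its footprints went from 12.1 and 11 CPM to 1.48 and 1.65 CPM. Listed lengths 683 and 282 were sparse, with 16 and 4 control footprint counts against 1 and 9, and 18 and 10 against 10 and 9. The nearly absent members lay far from this edge, whereas the reduced ones reached it.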

How the data were processed

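The authors deposited 1 table per library with an identifier, a length without a stated unit, and a whole-number count per transcript, not normalized. Per the submitters' processing notes, which state no roles, the tools included TopHat2 2.0.9, Bowtie2 2.1.0 and CASAVA 1.8. For the build, the annotation and how reads were counted, nothing is given in the sources used here. Groups and replicate numbers came from sample titles. CPM used the column total. The footprint test was edgeR 4.0.16 under R 4.3.3 (quasi-likelihood, TMM scaling, minimum count 10, 2 group means, 4 libraries, 2 residual degrees of freedom), with Benjamini-Hochberg adjustment over all transcripts and a threshold of 0.05. DESeq2 1.42.0 was an alternative. Each SE is the absolute log2 change over the square root of the test's F statistic, raised to counting error where that is larger. The fit was tested on simulated data. The plan named only the transcripts directly before and after a run, and fixed no row window. The wider and narrower row windows and the count over runs were added after seeing the data, as was the division into nearly absent and reduced. Row windows used log2 of mean CPM plus 0.1. Members and lists were chosen with earlier results of these data known. Full values were planned for the 10 members with most control footprints, the 3 longest and 3 shortest, the largest run, members not called and the 3 nearest the limit on each side. Other members, and gene lists for want of names, were summarised or not analysed here.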

Additional observations from a re-analysis of the deposited data

How the results depend on the processing

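The number of members depends on the limits: 34 became 53 at a control minimum of 1 CPM and 63 at a fold over 3, which follows from the looser rule. Leaving out each RNA library in turn gave 36 to 43. Such an omission can only loosen the rule, so that all 34 were kept was bound to follow. TMM-scaled library sizes gave 40. The members' median control ratio of footprints to RNA was 0.714 over both replicates. It was 0.79 in members with at least 10 control footprint counts in each library, and 0.701 to 0.705 with 1 control replicate left out. A minimum count of 50 left 17 members to test, of which 17 were called lower, against 3797 of all 13203 transcripts tested. None of the 17 reached that minimum in RNG140-GFP libraries, so this count was bound to follow. Fits that leave out a footprint library take a lone library to vary as the other group does, so their counts of calls are not given. With a replicate block, 31 of the 31 members tested were called lower, against 4103 of all 15886 transcripts tested. Without the block, 31 members and 4162 transcripts were called lower. Both fits used the minimum count of 10, which kept most of these members for their control counts, so 31 was bound to be high. Libraries sharing a number had deviations correlated at r = 0.0067 (footprints) and 0.11 (RNA). The labels do not tie a number to a shared culture or day. Footprint depth limits the smallest members: the second control footprint library held 4908885 counts, where 3 counts are 0.611 CPM.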

Other observations

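Below the control minimum of the rule, 19 further distinct transcripts with at least 1 CPM in both control RNA libraries met the same limit of 4-fold, and 0 were kept out by length alone. Of these 19, 4 had no RNA count in RNG140-GFP cells. One of them, of listed length 669, had 39 and 42 control RNA counts, with 14 and 6 footprint counts in controls against 1 and 0. Another, of listed length 295, had 69 and 59 control RNA counts but 1 and 0 control footprint counts. The transcript of listed length 79 differed from both. Its RNA was 51 and 41 counts in controls against 3 and 2, yet it kept many footprints, at 23.6 and 28.1 CPM in controls against 11.1 and 13.4 CPM. These 3 transcripts were chosen after their values were seen.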
